A study of Mus musculus with 103 samples.

Results

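Mature tRNAs of adult mouse cortex were compared between Nsun2 KO and WT mice by YAMAT-seq. The members were taken from the deposited YAMAT-seq table as every nuclear or mitochondrial tRNA with a mean of at least 10 normalized counts over the 7 mice. They are 166 of the 240 tRNAs listed: 136 nuclear tRNAs outside tRNA-Gly, 8 nuclear tRNA-Gly and 22 mitochondrial tRNAs. Added up by anticodon, they give 68 sums, 46 of them nuclear. The 7 mice are part of a study of 103 samples on loss of the tRNA methyltransferase NSUN2 from neurons. The KO group is 4 adult mice that carry a floxed Nsun2 gene and Camk2a-Cre, which deletes in excitatory neurons of the forebrain, so that the other cells of the cortex keep the gene. The WT group is 3 adult mice labelled as floxed and without Cre. The study's controls could carry 1 or 2 floxed alleles, and the labels do not say which these had. Whole cortex was used, so fewer neurons and less tRNA per neuron cannot be told apart, and the assay does not read Nsun2 mRNA, so the genotypes rest on the labels.

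tRNAs carry amino acids to the ribosome and read codons through their anticodon. Copies that share an anticodon and differ elsewhere in sequence are called isodecoders, and their joint level is what a codon meets. NSUN2 adds a methyl group to cytosines near the junction of the variable arm and the T arm of many nuclear tRNAs, to the first anticodon base of tRNA-Leu-CAA, and to several mitochondrial tRNAs. This mark is known to protect tRNAs from cleavage, though the study reported fewer fragments of several tRNA-Gly anticodons in adult KO cortex, unlike prenatal brain. In YAMAT-seq a Y-shaped adapter is ligated to the protruding end of a mature tRNA after amino acids and several methyl groups are removed, so that 1 read stands for 1 nearly whole molecule, and unique molecular identifiers remove PCR copies. Levels of tRNAs were therefore not scaled by length.

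The sequences of the anticodons that carry the results are shown first. They come from RefSeq tRNA genes (GRCm38.p6, 5′ to 3′, without the CCA end), in lower case with the anticodon in capitals. The names of nuclear isodecoders in the table are not paired with these genes, so nuclear sequences stand for an anticodon and not for a named isodecoder. RefSeq holds 8 genes of Trp-CCA with 6 distinct sequences, which differ from each other at 1 to 5 bases, and the most copied 2 are given (2 genes each). For Ser-TGA, which has a long variable arm, 3 genes hold 2 sequences that differ at 12 bases. All 7 genes of Gly-TCC share 1 sequence.
Trp-CCA (chr13:23498106-23498177, plus strand): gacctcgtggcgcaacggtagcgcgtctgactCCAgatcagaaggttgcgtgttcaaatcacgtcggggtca
Trp-CCA (chr11:69041826-69041897, plus strand): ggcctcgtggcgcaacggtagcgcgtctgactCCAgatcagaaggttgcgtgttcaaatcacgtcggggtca
Ser-TGA (chr13:21924935-21925016, minus strand): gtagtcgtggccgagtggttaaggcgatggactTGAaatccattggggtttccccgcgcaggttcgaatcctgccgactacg
Ser-TGA (chr10:63429476-63429557, minus strand): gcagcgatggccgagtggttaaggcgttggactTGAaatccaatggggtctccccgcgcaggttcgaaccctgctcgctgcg
Gly-TCC (chr1:171037997-171038068, minus strand): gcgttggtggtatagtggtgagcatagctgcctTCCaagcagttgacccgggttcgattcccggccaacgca
The nuclear tRNA-Pro anticodons are shown because they are near copies of each other. The 6 genes of Pro-AGG share 1 sequence, the 3 genes of Pro-CGG share another, and the most copied Pro-TGG sequence stands in 4 of 7 genes. Between any of these 3 sequences 1 of 72 bases differs, the first base of the anticodon at position 33 counted from the 5′ end.
Pro-AGG (chr1:165641634-165641705, plus strand): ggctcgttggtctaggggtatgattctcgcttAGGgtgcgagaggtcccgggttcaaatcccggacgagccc
Pro-CGG (chr1:165642271-165642342, minus strand): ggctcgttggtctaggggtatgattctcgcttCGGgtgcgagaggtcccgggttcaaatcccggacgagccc
Pro-TGG (chr3:51358354-51358425, plus strand): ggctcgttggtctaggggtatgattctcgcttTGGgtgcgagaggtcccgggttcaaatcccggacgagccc
The mitochondrial tRNAs for Ala, Asn, Cys and Tyr are encoded beside each other on 1 strand of the mitochondrial genome and are shown because mt-Cys-GCA passed the test with all mice and its neighbours did not.
mt-Ala-TGC (chrM:5018-5086, minus strand): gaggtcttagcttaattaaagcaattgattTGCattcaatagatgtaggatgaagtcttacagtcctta
mt-Asn-GTT (chrM:5089-5159, minus strand): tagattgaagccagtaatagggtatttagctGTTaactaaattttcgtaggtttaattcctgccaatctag
mt-Cys-GCA (chrM:5192-5257, minus strand): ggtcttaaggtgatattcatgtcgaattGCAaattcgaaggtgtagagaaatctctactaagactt
mt-Tyr-GTA (chrM:5260-5326, minus strand): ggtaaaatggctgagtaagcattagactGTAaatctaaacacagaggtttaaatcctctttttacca

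Libraries differed in depth, which separated the genotypes, and in the balance of abundant and rare tRNAs, which did not. Within a mouse, all values are whole multiples of a common step, which may be a deduplicated read but cannot be shown to be. In numbers of steps, the sums were 98977, 139036, 99440 and 107154 in KO mice 1 to 4 (KO1 to KO4), against 96033, 77910 and 95600 in WT mice 1 to 3 (WT1 to WT3). Every KO library was thus above every WT library. KO mouse 2 was the deepest and WT mouse 2 the shallowest. After the scaling by DESeq2 these mice were at the other ends, with summed values of 76840 in KO mouse 2 and 129137 in WT mouse 2 and 94245 to 102576 in the other 5 mice. The less abundant 83 of the 166 tRNAs held 7.82%, 10.6%, 5.90% and 7.13% of the counts in KO mice, against 6.13%, 3.77% and 6.14% in WT mice, with KO mouse 3 below WT mice 1 and 3. The tests of level and share and the mitochondrial share were also computed without these libraries, and the part of depth in the results was not tested.

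**Figure D1:**
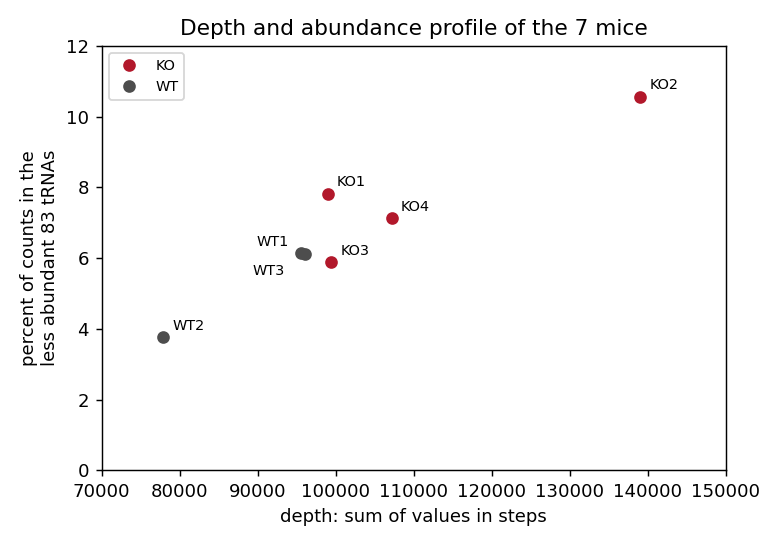
Depth of each mouse (horizontal axis, sum of values in steps) against the percent of counts in the less abundant 83 tRNAs (vertical axis), with KO mice in red and WT mice in grey. KO mouse 2, at 139036 steps and 10.6%, and WT mouse 2, at 77910 steps and 3.77%, lie apart from the other 5 mice.

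Of the 166 tRNAs, 4 (2.41%) were lower and 10 (6.02%) were higher in KO than in WT cortex (limma on log2(normalized count + 1), Benjamini-Hochberg adjusted p under 0.05). Log2 fold changes are KO over WT on that scale and are given with their standard error (SE). The lower ones were mt-Cys-GCA, Gln-TTG-2-1, Val-CAC-3-1 and Gly-TCC-1-1. The higher ones were all nuclear and outside tRNA-Gly: Ala-AGC-2-1, Ala-TGC-1-1, Ser-CGA-1-1, Ser-GCT-2-1, Ser-TGA-1-1, Cys-GCA-7-1, Cys-GCA-17-1, Leu-TAA-2-1, Thr-AGT-1-1 and Trp-CCA-2-1. KO and WT values did not overlap for 13 of the 14. Among all 166 tRNAs every KO mouse was below every WT mouse for 25 (15.1%) and above for 21 (12.7%). Fold changes on this scale understate the change of rare tRNAs. The median log2 fold change of all 166 tRNAs was -0.02, and it was 0.25 with each mouse scaled to its sum and 0.20 with each mouse scaled to nuclear tRNA outside tRNA-Gly, so the directions given here are relative to the authors' scaling. By the sum, 4 tRNAs were lower and 20 were higher, and by nuclear tRNA outside tRNA-Gly 5 and 18. With 1 mouse left out the counts were 1 lower and 2 higher (KO1 out), 3 and 3 (KO2 out), 10 and 22 (KO3 out), 1 and 4 (KO4 out), 4 and 18 (WT1 out), 0 and 3 (WT2 out), and 2 and 5 (WT3 out). Without both KO mouse 2 and WT mouse 2, the calls that remained were Ala-AGC-2-1, Ser-TGA-1-1 and Cys-GCA-17-1 among the higher and Gly-TCC-1-1 among the lower.

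**Figure D2:**
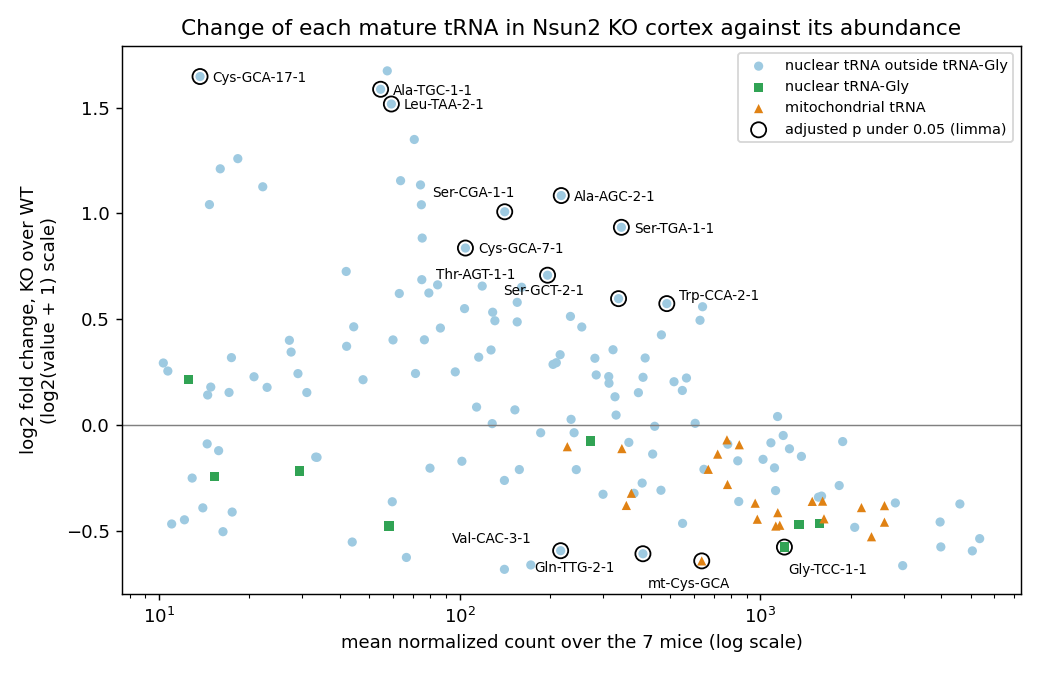
Log2 fold change of KO over WT on the log2(value + 1) scale (vertical axis) against the mean normalized count of each of the 166 tRNAs over the 7 mice (horizontal axis, log scale), with nuclear tRNAs outside tRNA-Gly as circles, nuclear tRNA-Gly as squares and mitochondrial tRNAs as triangles. The 14 tRNAs past the threshold are ringed and named, and under the authors' scaling 47 of the 56 most abundant tRNAs lie below 0.

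Direction went with abundance. In the most abundant tertile of the members 47 of 56 tRNAs had a negative log2 fold change, with a median of -0.32. Most of the 22 mitochondrial tRNAs, all negative under the authors' scaling, are in this tertile, so abundance and genome of origin are mixed. In the middle tertile 20 of 55 were negative (median 0.20), and in the least abundant tertile 17 of 55 (median 0.25). Of the 10 higher tRNAs, 9 lay outside the most abundant tertile. With each mouse scaled to its sum, 32 of 56 were negative in the most abundant tertile, and the medians were -0.05, 0.47 and 0.52 from the most to the least abundant tertile. Scaled to nuclear tRNA outside tRNA-Gly, 32 of 56 were negative and the medians were -0.10, 0.42 and 0.46. Without KO mouse 2 and WT mouse 2 the medians were -0.08, 0.12 and 0.10 from the most to the least abundant tertile. KO mouse 2 and WT mouse 2 had the highest and the lowest share of rare tRNAs, as given above, and the part of depth in this pattern was not tested.

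Among the 68 anticodon sums, Trp-CCA and Ser-TGA were higher (2.94%), and Gly-TCC and mt-Cys-GCA, each a single tRNA, were lower (2.94%) in KO cortex. Trp-CCA reads the only tryptophan codon. It summed to 792, 944, 589 and 679.8 normalized counts in KO mice 1 to 4, against 427, 383 and 564 in WT mice 1 to 3. Every KO mouse was above every WT mouse, though KO mouse 3 and WT mouse 3 were close (log2 fold change 0.71 ± 0.19 SE, limma adjusted p = 0.0276). The mean was 1.64-fold that of WT. Ser-TGA, which reads serine codons that begin with UC, had 782, 882, 689 and 711 in KO mice, against 517, 567 and 466 in WT mice. Again the groups did not overlap (log2 fold change 0.57 ± 0.17 SE, limma adjusted p = 0.0483). Of all sums, 8 (11.8%) had every KO mouse above every WT mouse and 14 (20.6%) had every KO mouse below.

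These sums rested on few mice. Trp-CCA missed the threshold in each fit that lacked KO1, KO2, WT2 or WT3 (adjusted p = 0.0598 to 0.144), and Ser-TGA in each fit that lacked KO1, KO2, KO4, WT1, WT2 or WT3 (adjusted p = 0.0510 to 0.121). No sum passed limma with KO1, KO2, WT2 or WT3 left out, or with each mouse scaled to its sum. With KO3 left out 19 were lower and 10 higher, with WT1 left out 5 and 5, and with KO4 left out 1 and 2. At an unadjusted p under 0.05, 19 sums were lower and 12 were higher in the limma fit of all mice. Without both KO mouse 2 and WT mouse 2, the log2 fold change of Trp-CCA was 0.47 (adjusted p = 0.122, limma) and that of Ser-TGA 0.57 (0.0528).

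**Figure D3:**
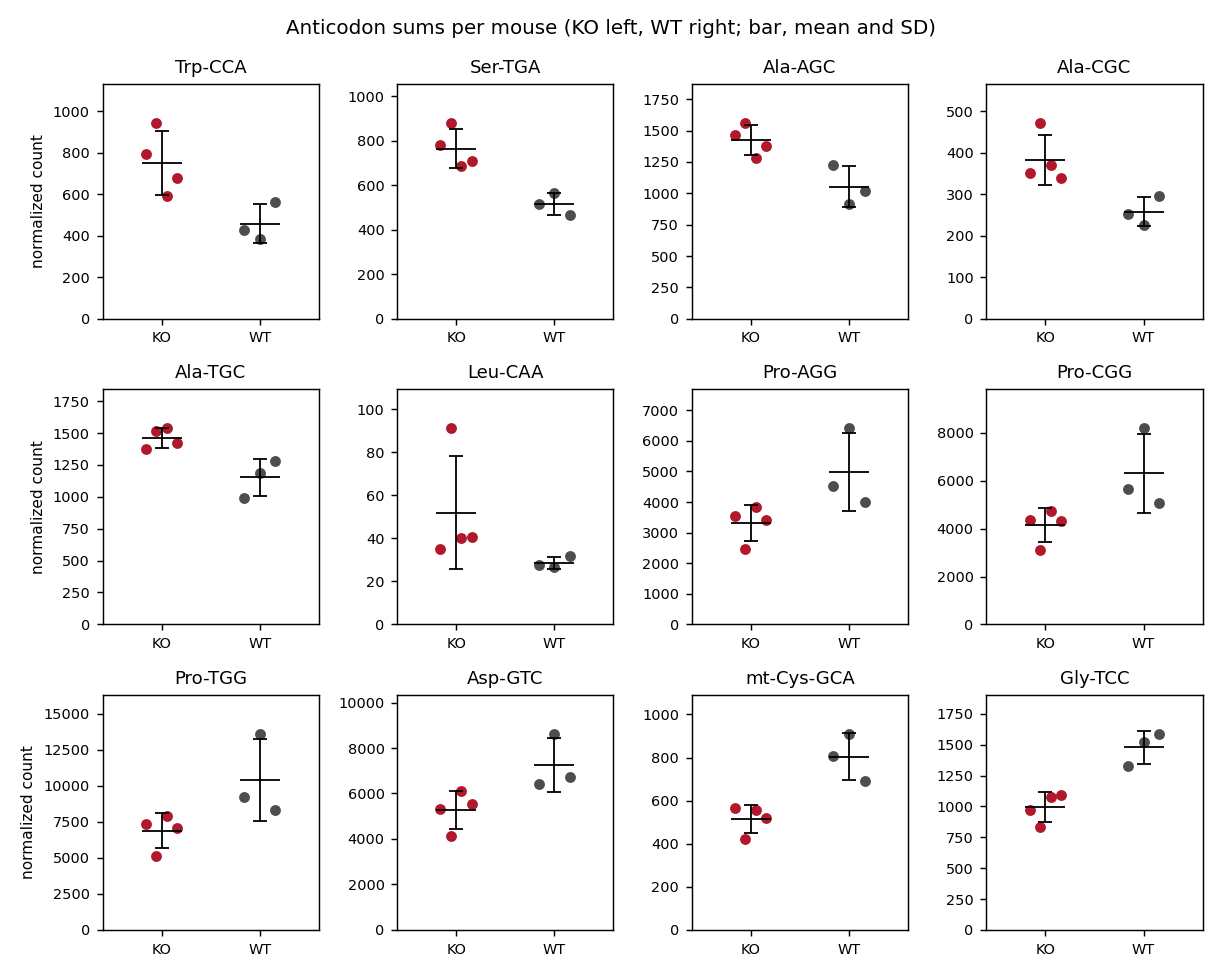
Anticodon sums in normalized counts (vertical axes, from 0) for 12 anticodons, with KO mice left in red, WT mice right in grey, and bars for mean and SD. In each panel every KO mouse lies to 1 side of every WT mouse: above for Trp-CCA, Ser-TGA, the 3 tRNA-Ala anticodons and Leu-CAA, and below for the 3 tRNA-Pro anticodons, Asp-GTC, mt-Cys-GCA and Gly-TCC.

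All 4 tRNA-Trp isodecoders tested had a positive log2 fold change, 0.57 for Trp-CCA-2-1 and 1.15, 1.21 and 1.67 for the other members. Sequences of Trp-CCA genes differ at as few as 1 base, so the members are not shown to be separate measurements. Trp-CCA-2-1, which held 78.1% of the anticodon, was the member past the threshold. It had 572, 671, 499.8 and 525 in KO mice, against 322, 355 and 475 in WT mice (log2 fold change 0.57 ± 0.16 SE, limma adjusted p = 0.0336). KO mouse 3 was the lowest KO mouse and still above WT mouse 3, the highest WT mouse. Trp-CCA-5-1 had the highest log2 fold change of the 166 tRNAs, with 90.5, 119.9, 36.3 and 70.1 in KO mice, against 44.9, 6.63 and 34.01 in WT mice, and did not pass (adjusted p = 0.0501, limma). Its lowest value was that of WT mouse 2, the shallowest library. Trp-CCA-2-1 missed the threshold in each fit that lacked KO1, KO2, KO4, WT1 or WT2 (adjusted p = 0.0614 to 0.130). Under the 4 scalings and without KO mouse 2 and WT mouse 2 all 4 tRNA-Trp stayed positive, with medians from 0.49 to 1.44.

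tRNA-Ser had 10 of 11 isodecoders with a positive log2 fold change (median 0.32), and 3 of them were higher. Ser-TGA-1-1, with 52.4% of its anticodon, had 483, 528, 339.6 and 386 in KO mice, against 263, 239 and 177 in WT mice. The lowest KO mouse was well above the highest WT mouse (log2 fold change 0.93 ± 0.18 SE, limma adjusted p = 0.00671). Its call held whichever mouse was left out. Ser-CGA-1-1, which reads UCG, had 193, 230.5, 135 and 159.8 in KO mice, against 119.6, 87.8 and 62.7 in WT mice (log2 fold change 1.01 ± 0.26 SE, limma adjusted p = 0.0287). KO mouse 3 and WT mouse 1 were close to each other. Ser-GCT-2-1, which reads the other pair of serine codons, had 418, 513, 290.2 and 369 in KO mice, against 281, 252 and 240.2 in WT mice (log2 fold change 0.60 ± 0.18 SE, limma adjusted p = 0.0497). Ser-CGA-1-1 missed the threshold in each fit that lacked KO1, KO2, KO4, WT2 or WT3 (adjusted p = 0.0574 to 0.113) and Ser-GCT-2-1 in each fit that lacked KO1, KO2, KO4, WT2 or WT3 (adjusted p = 0.0873 to 0.135). As a sum, Ser-AGA did not pass, with 838, 930.1, 819 and 871 in KO mice, against 754, 731 and 537 in WT mice (log2 fold change 0.37 ± 0.17 SE, limma adjusted p = 0.100). It was higher with scaling to nuclear tRNA outside tRNA-Gly (0.60, limma adjusted p = 0.0482). Without KO mouse 2 and WT mouse 2, 8 of the 11 tRNA-Ser were positive.

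In tRNA-Ala all 16 isodecoders had a positive log2 fold change, from 0.13 to 1.59 with a median of 0.44, and 2 were higher. All 16 stayed positive under each of the other 3 scalings and without KO mouse 2 and WT mouse 2 (medians 0.42 to 0.72). Ala-AGC-2-1 had 269, 372, 249 and 241 in KO mice, against 142, 113 and 139 in WT mice. Every KO mouse was far above every WT mouse, with a mean 2.15-fold that of WT (log2 fold change 1.08 ± 0.20 SE, limma adjusted p = 0.00632), and the call held whichever mouse was left out. Ala-TGC-1-1, a rare isodecoder, had 71.4, 126, 65.5 and 42.6 in KO mice, against 14.95, 18.2 and 43.6 in WT mice. It is the one called tRNA whose groups overlapped, KO mouse 4 being below WT mouse 3 (log2 fold change 1.59 ± 0.42 SE, limma adjusted p = 0.0287). Ala-TGC-1-1 missed the threshold in each fit that lacked KO1, KO2 or WT2 (adjusted p = 0.0644 to 0.113).

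The 3 tRNA-Ala sums, which together read all alanine codons, each had every KO mouse above every WT mouse and none passed. Ala-AGC, whose first base is read as inosine, had 1468, 1561, 1284 and 1380.1 in KO mice, against 1228, 915 and 1019 in WT mice (log2 fold change 0.44 ± 0.16 SE, limma adjusted p = 0.0639). For Ala-CGC the values were 350.4, 473, 371 and 339.9 in KO mice, against 252, 227 and 297 in WT mice (log2 fold change 0.56 ± 0.21 SE, limma adjusted p = 0.0639). For Ala-TGC they were 1377, 1519, 1537 and 1419, against 994, 1185 and 1282 (log2 fold change 0.35 ± 0.16 SE, limma adjusted p = 0.0994). The 3 sums together made up 3.18% to 4.62% of the summed values of a KO mouse, against 1.802% to 2.56% in WT mice. All 3 passed with each mouse scaled to nuclear tRNA outside tRNA-Gly (adjusted p = 0.0466 to 0.0497, limma).

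The other 4 higher tRNAs came from tRNA-Cys, tRNA-Leu and tRNA-Thr. Cys-GCA-7-1 had 141, 144, 114 and 118 in KO mice, against 77.97, 62.99 and 74.4 in WT mice (log2 fold change 0.84 ± 0.25 SE, limma adjusted p = 0.0497). Cys-GCA-17-1 is the rarest called tRNA, at 0.480% of its anticodon, with 25.7, 17.7, 24.2 and 11.5 in KO mice, against 4.27, 8.29 and 4.25 in WT mice (log2 fold change 1.65 ± 0.40 SE, limma adjusted p = 0.0244). KO mice lay above WT mice for both. The sum of the anticodon, 8 isodecoders, did not follow, with 3177, 2452, 2940.2 and 2963 in KO mice, against 2729, 3017 and 2714 in WT mice, and it overlapped (log2 fold change 0.03 ± 0.17 SE, limma adjusted p = 0.887). With scaling to nuclear tRNA outside tRNA-Gly it was higher, at 0.25 (limma adjusted p = 0.0497). Leu-TAA-2-1 had 67.6, 141, 58.4 and 60.4 in KO mice, against 27.8, 13.3 and 46.8 in WT mice (log2 fold change 1.52 ± 0.42 SE, limma adjusted p = 0.0336), KO mouse 2 being far above the other KO mice. Thr-AGT-1-1 had 270.4, 249, 196 and 219 in KO mice, against 194, 111 and 132 in WT mice (log2 fold change 0.71 ± 0.22 SE, limma adjusted p = 0.0497), with KO mouse 3 just above WT mouse 1. Cys-GCA-7-1 missed the threshold in each fit that lacked KO1, KO2, KO4, WT2 or WT3 (adjusted p = 0.0873 to 0.141), Cys-GCA-17-1 in each fit that lacked KO1 or WT3 (adjusted p = 0.0888 to 0.0922), Leu-TAA-2-1 in each fit that lacked KO1, KO2, KO4 or WT2 (adjusted p = 0.0574 to 0.131) and Thr-AGT-1-1 in each fit that lacked KO1, KO2, KO4, WT2 or WT3 (adjusted p = 0.0873 to 0.212).

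Of the lower tRNAs, mt-Cys-GCA fell to 64.0% of the WT mean. It had 566, 421, 554 and 517 in KO mice, against 809, 910.0 and 693 in WT mice, and the groups did not overlap (log2 fold change -0.64 ± 0.15 SE, limma adjusted p = 0.0194). This is the mitochondrial tRNA that reads cysteine codons in the organelle's own translation, and the sequence shown above is its only gene. Among the 166 tRNAs it missed the threshold in the fit that lacked WT2 (adjusted p = 0.110) and without both KO mouse 2 and WT mouse 2 (log2 fold change -0.46, adjusted p = 0.0683, limma). Its neighbour mt-Asn-GTT had 1925, 1423, 2419 and 2145 in KO mice, against 2423, 3332 and 2728 in WT mice, also without overlap, and did not pass among the sums (log2 fold change -0.53, adjusted p = 0.0639, limma). KO mouse 3 and WT mouse 1 differed little, and with either left out mt-Asn-GTT was lower (adjusted p = 0.00955 and 0.0440, limma). In each fit that lacked KO1, KO2, KO4, WT2 or WT3 it missed the threshold (adjusted p = 0.0628 to 0.287, limma). Without both KO mouse 2 and WT mouse 2 its log2 fold change was -0.26 (adjusted p = 0.187, limma). The other neighbours overlapped, with -0.32 for mt-Ala-TGC and -0.10 for mt-Tyr-GTA.

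All 22 mitochondrial tRNAs had a negative log2 fold change (median -0.38, range -0.64 to -0.07), 1 was lower, and 19 overlapped between the genotypes. This direction depended on the scaling. With each mouse scaled to its sum, or to nuclear tRNA outside tRNA-Gly, 16 of 22 were negative (medians -0.10 and -0.15), and without KO mouse 2 and WT mouse 2 17 were (-0.10). The 8 tRNAs of the light strand had a median of -0.35 and the 14 of the heavy strand -0.38. The 5 most abundant were mt-Asn-GTT, mt-Trp-TCA, mt-His-GTG, mt-Gln-TTG and mt-Val-TAC. mt-Trp-TCA, which in mitochondria also reads a codon that is a stop elsewhere, had 2367, 1559.6, 2628 and 2578 in KO mice, against 2390.5, 3993 and 2594 in WT mice, and overlapped (log2 fold change -0.38, adjusted p = 0.131, limma). Without KO mouse 2 and WT mouse 2 it was 0.02. For mt-His-GTG, mt-Gln-TTG and mt-Val-TAC the log2 fold changes were -0.46, -0.39 and -0.44, all with overlap. mt-Arg-TCG did not overlap, with 999, 699, 1157 and 1008 in KO mice, against 1202, 1626 and 1188 in WT mice, though KO mouse 3 and WT mouse 3 were close (log2 fold change -0.48, adjusted p = 0.0639, limma).

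Taken as a share of all counts, which no scaling of a mouse can change, mitochondrial tRNA made up 24.0%, 21.9%, 26.5% and 25.5% in KO mice, against 25.0%, 27.6% and 26.6% in WT mice. The mean was 24.5% ± 2.01 in KO (SD, n = 4) and 26.4% ± 1.30 in WT (SD, n = 3), and the ranges overlapped. The difference of -1.89 percentage points did not pass an exact two-sided permutation test (p = 0.229 over 35 arrangements, whose smallest possible p is 0.0571, so no result could pass 0.05). KO mouse 2 was lowest and WT mouse 2 highest, and without both the difference was -0.44 points.

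Pro-TGG, which reads proline codons as Pro-CGG and Pro-AGG do, is the most abundant sum of the table. It had 7369, 5123, 7911 and 7074 in KO mice, against 9240.4, 13608 and 8298 in WT mice (log2 fold change -0.58 ± 0.25 SE, limma adjusted p = 0.0929). Pro-CGG had 4364, 3108, 4745 and 4333 in KO mice, against 5660.1, 8193 and 5084 in WT mice (log2 fold change -0.60 ± 0.22 SE, limma adjusted p = 0.0639). For Pro-AGG the values were 3533, 2475, 3837 and 3405 in KO mice, against 4525, 6409.6 and 4004 in WT mice (log2 fold change -0.58 ± 0.21 SE, limma adjusted p = 0.0639). In all 3 every KO mouse was below every WT mouse, WT mouse 2 was far above the others, and none passed. The 3 sums kept a nearly fixed ratio in each mouse. Pro-CGG was 1.24 to 1.27 times Pro-AGG in KO and 1.25 to 1.28 times in WT, and Pro-TGG was 2.06 to 2.09 times and 2.04 to 2.12 times Pro-AGG. As shown above these sequences differ at 1 base, how reads that match several tRNAs were assigned is not given in the sources used here, and the 3 sums are not shown to be separate measurements. Together they made up 13.9% to 16.5% of the summed values in KO mice, against 17.1% to 21.8% in WT mice. All 3 passed with each mouse scaled to nuclear tRNA outside tRNA-Gly (adjusted p at most 0.0497, limma), and 6 of the 7 tRNA-Pro were negative under every scaling. Without KO mouse 2 and WT mouse 2 the median of the 7 tRNA-Pro was -0.20, against -0.55 with all mice.

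The 2 nuclear tRNAs outside tRNA-Gly that were lower were minor isodecoders. Gln-TTG-2-1, with 15.6% of its anticodon, had 334, 290.1, 377 and 328 in KO mice, against 523, 530.4 and 466 in WT mice (log2 fold change -0.61 ± 0.14 SE, limma adjusted p = 0.0194). Val-CAC-3-1, with 18.05% of an anticodon that reads GUG, had 173, 147, 202 and 191 in KO mice, against 255, 260.2 and 289 in WT mice (log2 fold change -0.60 ± 0.18 SE, limma adjusted p = 0.0497). KO mice lay well below WT mice in both. The sums of their anticodons did not pass, at -0.22 for Gln-TTG and -0.23 for Val-CAC, and with each mouse scaled to its sum or to nuclear tRNA outside tRNA-Gly neither isodecoder passed (limma adjusted p = 0.0649 to 0.260). Gln-TTG-2-1 missed the threshold in each fit that lacked KO1, KO4 or WT2 (adjusted p = 0.0565 to 0.110), and Val-CAC-3-1 in each fit that lacked KO1, KO2, KO4, WT1, WT2 or WT3 (adjusted p = 0.0582 to 0.135). All 7 tRNA-Gln had a negative log2 fold change under the authors' scaling (median -0.29) and 4 of 7 when each mouse was scaled to its sum.

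tRNA-Gly, the family on which the study centres, had 1 of 8 tRNAs past the threshold and 7 of 8 negative (median -0.35). The study's own test of its YAMAT-seq, at an adjusted p under 0.05, reported decreases for isodecoders of Gly-CCC, Gly-GCC and Gly-TCC. That test differs from the limma fit used here. With each mouse scaled to its sum 4 of 8 were negative (median -0.09), and with scaling to nuclear tRNA outside tRNA-Gly 6 of 8 (-0.14). Gly-TCC-1-1, the single member of its anticodon, had 974, 830.1, 1078 and 1094 in KO mice, against 1329.8, 1522 and 1589 in WT mice. The groups were well apart (log2 fold change -0.58 ± 0.15 SE, limma adjusted p = 0.0287). It missed the threshold among the 166 tRNAs in each fit that lacked KO1, KO4, WT2 or WT3 (adjusted p = 0.0574 to 0.111), and with each mouse scaled to its sum (0.0614, limma). The sum of Gly-CCC had 1427, 1211, 1557 and 1511 in KO mice, against 1862, 2340.4 and 1737 in WT mice (log2 fold change -0.47 ± 0.16 SE, limma adjusted p = 0.0639), and Gly-GCC had 1423, 1203, 1615 and 1537, against 1676, 2281 and 1785 (log2 fold change -0.40 ± 0.16 SE, limma adjusted p = 0.0815). Every KO mouse was below every WT mouse in both, and neither passed. Gly-CCC passed with scaling to nuclear tRNA outside tRNA-Gly (-0.24, by limma, just under the threshold).

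Under the authors' scaling, the anticodons outside tRNA-Gly that the study measured by bisulfite sequencing did not pass. Glu-TTC had 892, 876, 928 and 920.4 in KO mice, against 710.3, 711 and 833 in WT mice, with every KO mouse above (log2 fold change 0.27 ± 0.16 SE, limma adjusted p = 0.170). It was higher with scaling to nuclear tRNA outside tRNA-Gly (0.49, limma adjusted p = 0.0497), and Glu-TTC-1-1 and Glu-TTC-2-1 passed with each mouse scaled to its sum. Asp-GTC had 5297, 4121, 6112 and 5556 in KO mice, against 6427, 8624 and 6719 in WT mice, with every KO mouse below (log2 fold change -0.46 ± 0.22 SE, limma adjusted p = 0.107). Glu-CTC and Val-AAC overlapped, with log2 fold changes of -0.07 and -0.10, and both turned positive with each mouse scaled to its sum or to nuclear tRNA outside tRNA-Gly. Of the 17 members of these 5 anticodons, Pro-TGG included, 12 were negative and none passed, with a median of -0.15. Leu-CAA, whose first anticodon base NSUN2 methylates, is represented by the rare Leu-CAA-2-1. It had 35.2, 91.2, 40.3 and 40.8 in KO mice, against 27.8, 26.5 and 31.9 in WT mice (log2 fold change 0.73 ± 0.41 SE, limma adjusted p = 0.162). All KO mice were above all WT mice, and without KO mouse 2, far above the rest, the log2 fold change was 0.42.

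Initiator tRNA-Met (iMet-CAT), which starts translation, summed to 1644, 1199.8, 1663 and 1588 in KO mice, against 1740.0, 1895 and 2045 in WT mice. KO mice lay below WT mice, KO mouse 2 lowest (log2 fold change -0.32 ± 0.16 SE, limma adjusted p = 0.122). Arg-TCT-4-1, an isodecoder enriched in the nervous system, had 1022, 842, 1132 and 1087 in KO mice, against 1145, 1334 and 1304 in WT mice, without overlap (log2 fold change -0.31 ± 0.15 SE, limma adjusted p = 0.160). The remaining sums among the 10 most abundant nuclear ones outside tRNA-Gly were Lys-CTT (-0.37), Arg-TCT (-0.17) and Gln-CTG (-0.31), beside Cys-GCA, Gln-TTG, Asp-GTC, Glu-CTC and tRNA-Pro given above, and none of them passed under the authors' scaling. Arg-TCT and Gln-TTG turned positive with each mouse scaled to its sum or to nuclear tRNA outside tRNA-Gly.

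By amino acid, all members were positive in tRNA-Ala (16), tRNA-Trp (4), elongator tRNA-Met (3) and tRNA-Ile (2), though 1 of the 3 tRNA-Met was negative without KO mouse 2 and WT mouse 2. All were negative in tRNA-Gln (7), tRNA-Lys (7) and tRNA-Asp (3). Beside the -0.02 of all 166 tRNAs, medians were lowest in tRNA-Pro (-0.55), tRNA-Asp (-0.46) and tRNA-Lys (-0.37) and highest in tRNA-Trp (1.18) and tRNA-Cys (0.50). The low end of this order rested on KO mouse 2 and WT mouse 2. Without them tRNA-Pro was at -0.20, tRNA-Asp at -0.22 and tRNA-Lys at -0.10, above tRNA-Gly at -0.36 and tRNA-Tyr at -0.34. At the high end tRNA-Cys, at 0.52, and tRNA-Trp, down to 0.49, stayed highest but changed places. Scaled to the sum, tRNA-Lys had 5 of 7 negative and tRNA-Asp 2 of 3, and tRNA-Val, with 8 of 10 negative under the authors' scaling, had 1 of 10. Of the 23 nuclear tRNAs with a long variable arm (leucine, serine and selenocysteine), 18 were positive, 4 were higher and the median was 0.24, and of the other 121 nuclear tRNAs 64 were positive, 6 were higher and 3 lower, with a median of 0.05. Without KO mouse 2 and WT mouse 2, 12 of the 23 were positive, with a median of 0.073. By first anticodon base the medians of nuclear tRNAs were 0.24 for A, -0.03 for G, 0.07 for C and 0.13 for T. The 10 tRNAs with an anticodon that can carry queuosine (Asn-GTT, Asp-GTC, His-GTG and Tyr-GTA) had a median of -0.15, with 7 negative and none called. The groups were described by counts and medians and not tested, and abundance differed between them.

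**Figure D4:**
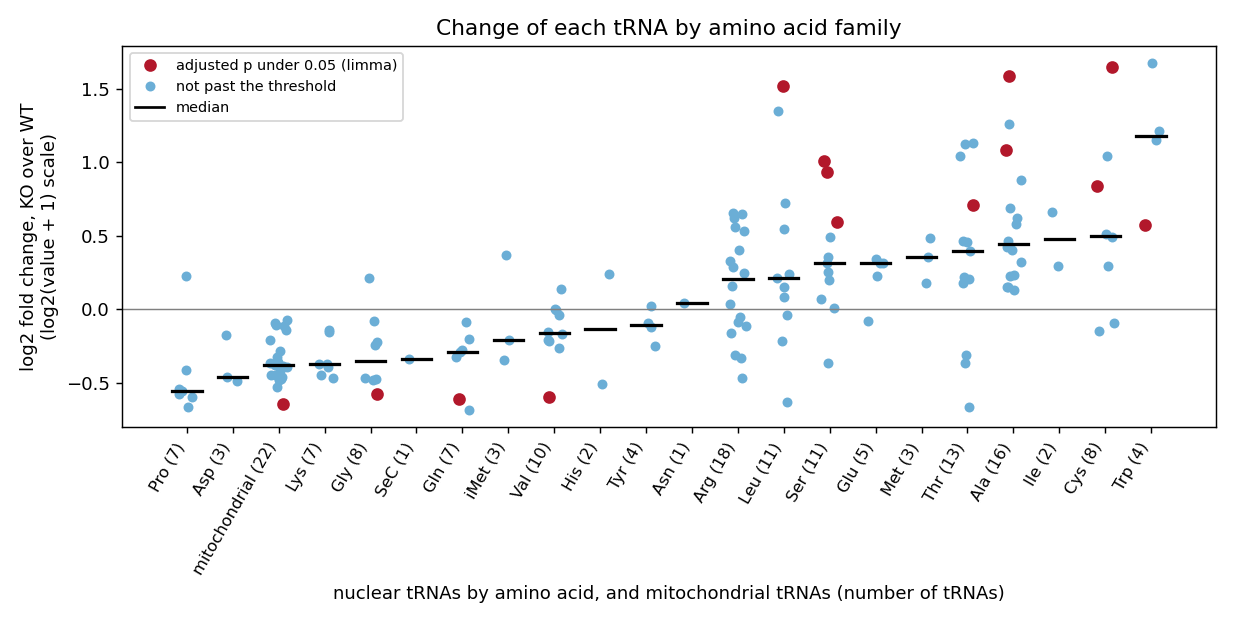
Log2 fold change of KO over WT on the log2(value + 1) scale for each of the 166 tRNAs (vertical axis), by amino acid for nuclear tRNAs and together for mitochondrial tRNAs (horizontal axis, number of tRNAs in brackets), with tRNAs past the threshold in red and medians as black lines. All 16 tRNA-Ala lie above 0, and 6 of 7 tRNA-Pro and all 22 mitochondrial tRNAs lie below 0.

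The level of an isodecoder against the rest of its anticodon in the same mouse does not depend on how a mouse is scaled. It does depend, as the level of any single isodecoder does, on how reads were divided among near-identical isodecoders. How reads that match several tRNAs were assigned is not given in the sources used here. Of 127 such ratios, 3 (2.36%) were lower and 6 (4.72%) were higher in KO cortex (limma), and KO and WT shares did not overlap in any of these 9. Lack of overlap was not particular to them. Most ratios without overlap did not pass, among them those of Arg-TCT-1-1, Arg-TCT-3-1, Cys-GCA-3-1, Gln-TTG-1-1 and Thr-CGT-2-1. At an unadjusted p under 0.05, 18 were lower and 24 higher. Val-CAC-3-1 made up 15.6, 16.4, 16.03 and 15.7 percent of Val-CAC in KO mice, against 21.02, 20.5 and 20.1 percent in WT mice. The spread within a genotype was small beside the difference (log2 ratio change -0.45, adjusted p = 0.0308, limma). Gln-TTG-2-1 made up 12.98, 14.4, 14.02 and 13.2 percent of Gln-TTG in KO mice, against 18.4, 17.8 and 17.6 percent in WT mice (log2 ratio change -0.46, adjusted p = 0.0308, limma). Thr-CGT-4-1, whose own level did not pass, made up 10.4% ± 1.51 in KO (SD, n = 4), against 17.6% ± 2.70 in WT (SD, n = 3) (log2 ratio change -0.88, adjusted p = 0.0308, limma).

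Shares were higher for Ala-AGC-2-1, with 18.3, 23.9, 19.4 and 17.4 percent of Ala-AGC in KO mice, against 11.6, 12.3 and 13.7 percent in WT mice (log2 ratio change 0.77, adjusted p = 0.0308, limma). Leu-TAA-2-1 made up 61.7, 62.5, 59.2 and 65.4 percent of Leu-TAA in KO mice, against 30.2, 42.1 and 46.8 percent in WT mice (log2 ratio change 1.30, adjusted p = 0.0308, limma). KO mouse 2, which had by far the highest level of this isodecoder, did not stand apart in its share. Arg-TCT-2-1 made up 28.3% ± 0.671 in KO (SD, n = 4), against 24.4% ± 0.512 in WT (SD, n = 3) (log2 ratio change 0.29, adjusted p = 0.0308, limma), a small and even difference in an anticodon whose sum overlapped. Arg-ACG-1-1 held 47.7% ± 1.42 in KO (SD, n = 4), against 41.7% ± 1.71 in WT (SD, n = 3), Cys-GCA-4-1 9.35% ± 0.607 in KO (SD, n = 4), against 6.66% ± 0.365 in WT (SD, n = 3), and Cys-GCA-17-1 0.686% ± 0.202 in KO (SD, n = 4), against 0.196% ± 0.0682 in WT (SD, n = 3), each with an adjusted p of 0.0308 (limma). Of the 9, 5 also passed as levels.

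With 1 mouse fewer, 0 ratios passed limma when KO1, KO4, WT2 or WT3 was left out, 2 were lower and 1 was higher when KO2 was, 6 and 9 when KO3 was, and 0 and 1 when WT1 was. Over these the adjusted p of the 9 reached at most 0.111, and no ratio passed without both KO mouse 2 and WT mouse 2. No log2 ratio change of the 9 turned round, the nearest to 0 being 0.27 for Arg-TCT-2-1.

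**Figure D5:**
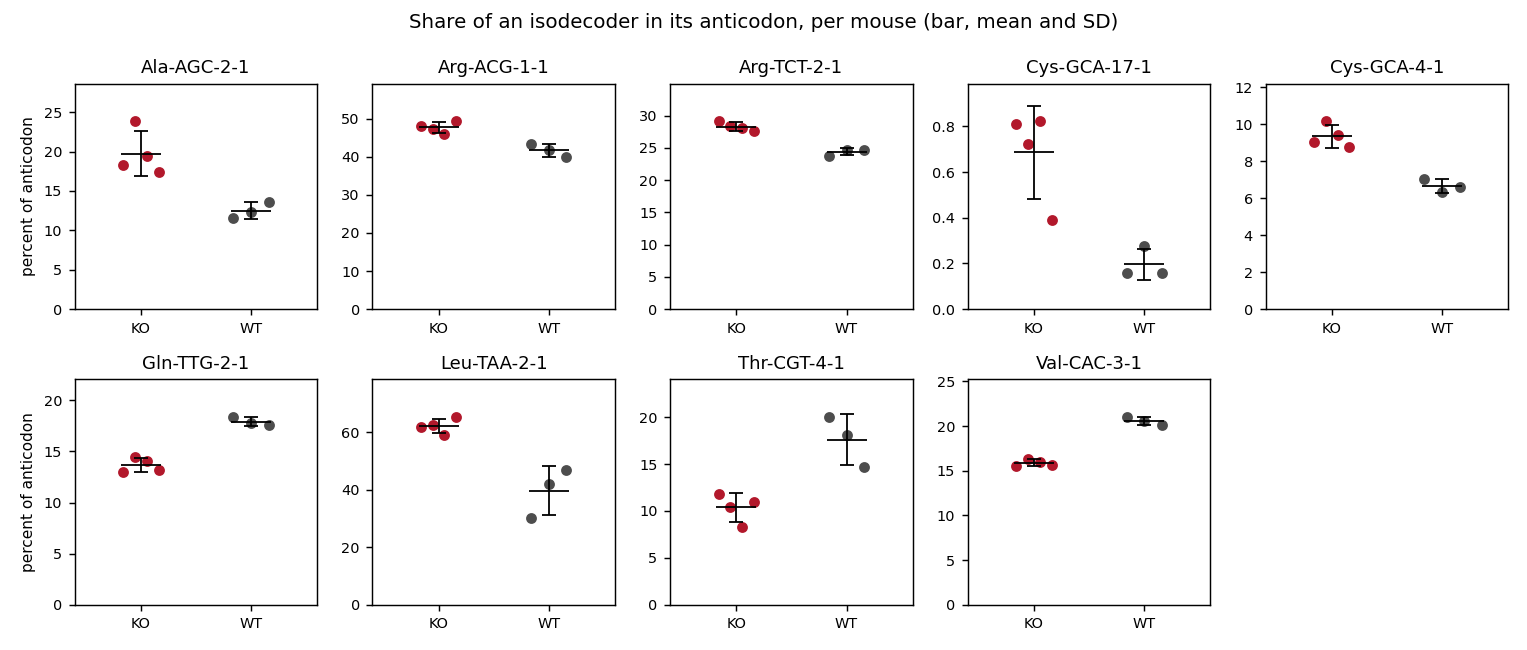
Share of an isodecoder in its anticodon (vertical axes, percent, from 0) for the 9 isodecoders past the threshold, with KO mice left in red, WT mice right in grey, and bars for mean and SD. Shares of Gln-TTG-2-1, Thr-CGT-4-1 and Val-CAC-3-1 are lower in every KO mouse, and the other 6 are higher.

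Of the 7 mice, 6 were also profiled by dm-Hydro-tRNAseq, which sequences fragments of hydrolysed tRNA (deposited as CPM, counts scaled to a common library total). For 46 nuclear anticodons the change of KO against WT was compared between the assays within a mouse. No difference passed the threshold (0.0% lower and 0.0% higher in YAMAT-seq, limma), and the smallest adjusted p was 0.276. At an unadjusted p under 0.05, 0 were lower and 6 were higher. The assays are scaled in different ways, so each difference also holds an offset of scaling. Of the differences, 19 were negative and 27 positive. With each mouse scaled in both assays by its median log ratio to the mean over mice, 24 were negative and 22 positive, and none passed. With 3 mice a genotype the 95% interval of a difference, before adjustment, reached a median of 0.67 to either side on the log2 scale. Most differences smaller than this were not detectable. Larger ones also missed the threshold, such as 1.08 for Leu-CAA (limma adjusted p = 0.276). Trp-CCA had 803, 845 and 1296 CPM in KO mice 2 to 4, against 951, 934 and 1188 CPM in WT mice 1 to 3 by dm-Hydro-tRNAseq. The groups overlapped there (log2 fold change -0.09, against 0.68 by YAMAT-seq in the same mice, difference 0.76 ± 0.31 SE, limma adjusted p = 0.276). Ser-TGA had 145, 147 and 259 CPM in KO mice 2 to 4, against 199, 196 and 221 CPM in WT mice 1 to 3, also with overlap (log2 fold change -0.21, against 0.55, difference 0.77 ± 0.32 SE, limma adjusted p = 0.276).

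For the tRNA-Ala sums the log2 fold changes by dm-Hydro-tRNAseq were 0.04, -0.16 and -0.01 for Ala-AGC, Ala-CGC and Ala-TGC, against 0.42, 0.60 and 0.38 by YAMAT-seq. With each assay on its own scale, tRNA-Pro gave nearly equal values for Pro-AGG, Pro-CGG and Pro-TGG. They were -0.59, -0.54 and -0.55 by dm-Hydro-tRNAseq and -0.61, -0.63 and -0.62 by YAMAT-seq, with intervals of the difference as wide as -1.08 to 0.94. By dm-Hydro-tRNAseq KO and WT mice overlapped in each tRNA-Pro sum. Pro-AGG had 671, 479 and 1061 CPM in KO mice, against 943, 992 and 1254 CPM in WT mice. Asp-GTC, too, was near, at -0.48 and -0.47 (interval of the difference -0.54 to 0.56). Its groups also overlapped by dm-Hydro-tRNAseq, with 1810, 2743 and 2236 CPM in KO mice, against 2988, 4524 and 2215 CPM in WT mice. In tRNA-Gly the changes were -1.11, -1.09 and -0.58 by dm-Hydro-tRNAseq and -0.40, -0.57 and -0.47 by YAMAT-seq for Gly-GCC, Gly-TCC and Gly-CCC. The mice, and the RNA of their cortex, are shared by the assays, so agreement between them is no independent repeat of the comparison.

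At the minimum of 10 normalized counts, the tRNAs just inside were Ile-TAT-2-1, Ser-CGA-3-1 and Lys-CTT-16-1, with means of 10.3, 10.7 and 11.03. Just outside were Trp-CCA-1-1, Ile-AAT-3-1 and Leu-CAG-3-1, with 8.56, 8.26 and 7.79. Ile-TAT-2-1 had 12.4, 19.9, 4.03 and 10.7 in KO mice, against 7.48, 11.6 and 6.38 in WT mice, a level at which a few steps decide the fold change.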

How the data were processed

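YAMAT-seq was run on cortex RNA of 4 KO and 3 WT mice. The authors deposited 1 table of normalized counts, a signal made by trimming reads (cutadapt), removing PCR copies by unique molecular identifier, merging read pairs and dividing each mouse by a DESeq2 size factor. The aligner, the tRNA reference and the treatment of reads that match several tRNAs are not given in the sources used here for YAMAT-seq. Each deposited value is a whole multiple of its mouse's smallest value, but this step is not certain to be 1 read, so the main fits used no count model. An alternative fit, with voom precision weights, took the numbers of steps as counts. The authors' dm-Hydro-tRNAseq table holds CPM of isodecoders from 6 of the same mice, matched by the animal tag in the labels. The sums came to 77910 to 139036 steps per mouse, and the counting precision is not known, since a step may not be 1 read. Nothing in the labels says that mice were processed in batches.

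tRNAs with a mean of at least 10 normalized counts, and their sums by anticodon, were tested with limma 3.58.1 (R 4.3.3, trend, two-sided) on log2(value + 1) with Benjamini-Hochberg adjustment over all tRNAs, sums or ratios tested and a threshold of 0.05. For a ratio, the log2 of the other members' sum was subtracted. For anticodons of 2 members the more abundant alone was kept. Assays were compared on the difference of log2 sums within a mouse. Shares of mitochondrial tRNA were compared by an exact permutation test (scipy 1.17.1, pandas 2.3.3, Python 3.11.15). The fits were tested on simulated data. Pseudocounts of 0.5 and 5, other scalings, a minimum mean of 50 or none, robust moderation, voom weights, replicate blocks and leaving out mice were alternatives. Leaving out KO mouse 2 with WT mouse 2, and voom weights, were chosen after seeing the data.

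Named were all tRNAs, sums and ratios past the threshold, up to 5 sums in each direction with the largest change among those without overlap, the anticodons that the study measured by bisulfite, the 10 most abundant nuclear sums outside tRNA-Gly, the 5 most abundant mitochondrial tRNAs, initiator tRNA-Met, Leu-CAA, Arg-TCT-4-1, tRNA-Gly and the tRNAs nearest the minimum. Ser-AGA, mt-Ala-TGC, mt-Tyr-GTA and the tRNA-Trp isodecoders that did not pass were added after their values were seen. The members and lists were chosen with earlier results of these data known. RNA-seq, ribosome profiling and the other assays of the series were not used here.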

Additional observations from a re-analysis of the deposited data

Results flagged for a closer look

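In 4 of the 61 groups of 4 KO values examined, 1 mouse lay so far from the other KO mice that its gap to the nearest of them passed the Dixon limit for 4 samples, which chance passes in about 1 of 20 groups. In all 4 the mouse was KO mouse 2, the deepest library. Leu-TAA-2-1 had 141 normalized counts in it, against 58.4 to 67.6 in the other KO mice, and Leu-CAA had 91.2, against 35.2 to 40.8. KO mouse 2 was at the low end for Gln-CTG, with 2119, against 2586 to 2670, and for iMet-CAT, with 1199.8, against 1588 to 1663. The part of depth in these values was not tested.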

How the results depend on the processing

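The depth of every KO library exceeded that of every WT library and KO mouse 2 and WT mouse 2 stood apart, so depth and genotype cannot be told apart. Planned edgeR and DESeq2 fits were not run, because the steps of the table could not be shown to be reads. No value of a called tRNA, sum or ratio changed direction in 263 comparisons under other settings or in 189 with 1 mouse left out, but 69 and 118 of these missed the threshold. Of the 30 named results that were not called, 26 of 331 such comparisons and 15 of 210 with 1 mouse left out passed. With scaling to nuclear tRNA outside tRNA-Gly these were the 3 tRNA-Ala and 3 tRNA-Pro sums, Cys-GCA, Glu-TTC, Gly-CCC and Ser-AGA. The sums of Arg-ACG and Ser-GCT, which are not among the 30, passed there as well. With KO mouse 3 left out the named results that passed included Gly-CCC, Gly-GCC, mt-Asn-GTT, mt-Arg-TCG, mt-Trp-TCA, mt-His-GTG, mt-Gln-TTG and mt-Val-TAC.

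Of the 4 lower and 10 higher tRNAs, the counts became 4 and 20 with each mouse scaled to its sum, 5 and 18 with scaling to nuclear tRNA outside tRNA-Gly, 4 and 6 with voom weights, and 1 and 3 without KO mouse 2 and WT mouse 2. The 2 lower and 2 higher anticodon sums became 0 and 0 scaled to the sum, 6 and 10 with the nuclear scaling, 2 and 1 summed over all listed tRNAs, and 0 and 0 without both mice (limma, 19 and 12 at an unadjusted p under 0.05 with all mice). The 3 lower and 6 higher ratios became 0 and 0 without both mice. Without 1 mouse in turn the counts ran from 0 to 10 lower and 2 to 22 higher tRNAs, 0 to 19 and 0 to 10 sums, 0 to 6 and 0 to 9 ratios, and 0 to 0 assay differences in either direction, and the difference in mitochondrial share ran from -2.59 to -1.02 points (exact permutation p = 0.133 to 0.533). The causes were not tested.

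KO and WT mice share numbers in the YAMAT-seq labels, and other numbers in the dm-Hydro-tRNAseq labels. Deviations of same-numbered mice correlated at 0.20, -0.60 and -0.0026 by the first numbering and at 0.53, 0.52 and -0.17 by the second. So few correlations cannot show whether either numbering pairs the mice, and the labels do not say. The main fits treat the mice as unpaired. With the YAMAT-seq number as a replicate block, 2 tRNAs were lower and 10 higher, and 0 and 0 sums and 0 and 0 ratios passed. With the dm-Hydro-tRNAseq number as a replicate block, 22 tRNAs were lower and 35 higher, 21 sums were lower and 10 higher, 0 and 0 ratios passed, and 0 assay differences were lower and 7 higher. Only mice with a number in both groups entered these fits. Under that block the log2 fold change of Cys-GCA was -0.022.

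Some log2 fold changes that did not pass turned round. By the sum and by nuclear tRNA outside tRNA-Gly, Glu-CTC was at 0.20 and 0.15, Val-AAC at 0.17 and 0.12, Arg-TCT at 0.10 and 0.052, and Gln-TTG at 0.058 and 0.0065. Without both mice, Glu-CTC was at 0.081, Arg-TCT at 0.046, mt-Trp-TCA at 0.018 and Ser-CGA-3-1 at -0.061. With 1 mouse left out, the range was -0.12 to 0.0081 for Glu-CTC, -0.23 to 0.047 for Val-AAC, -0.022 to 0.10 for Cys-GCA, -0.0025 to 0.68 for Ile-TAT-2-1 and -0.19 to 0.63 for Ser-CGA-3-1.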

Other observations

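The largest negative log2 fold change of the 166 tRNAs was that of Gln-CTG-1-1, a minor isodecoder that did not pass. It had 120.9, 106, 99.8 and 120.7 normalized counts in KO mice 1 to 4, against 183, 176 and 181 in WT mice 1 to 3 (log2 fold change -0.68, adjusted p = 0.0501, limma). Spread within each genotype was small and the groups were well apart. Gln-CTG-1-1 passed with pseudocounts of 0.5 and 5.

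tRNA-Thr held members of both directions. Thr-AGT-2-1 had 125, 127, 52.4 and 85.2 in KO mice, against 60.9, 41.4 and 27.6 in WT mice, and Thr-TGT-1-1 had 117, 116, 49.4 and 103.8 in KO mice, against 58.7, 31.5 and 45.7 in WT mice. KO mouse 3 overlapped WT mouse 1 in both, and neither passed (log2 fold changes 1.13 and 1.04). Thr-TGT-3-1, the most abundant member of its anticodon, had 783, 579, 889 and 782 in KO mice, against 898, 1081 and 921 in WT mice, with every KO mouse below (log2 fold change -0.36, adjusted p = 0.115, limma). Thr-CGT-4-1 had 166.6, 155, 93.7 and 138 in KO mice, against 261, 217 and 175 in WT mice, also with every KO mouse below, and did not pass (log2 fold change -0.66). These tRNAs were chosen after their values were seen.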
